A study of Piaractus mesopotamicus with 6 samples.

Results

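Myosin does not fold into its working shape unaided. In muscle, the chaperone Unc45b holds the myosin head together with Hsp90, and the muscle methyltransferase Smyd1 works with them while thick filaments are built. A family of Kelch proteins, which carry a BTB domain and a set of Kelch repeats, acts on the sarcomere from the other side: Klhl40 and Klhl41 protect the thin filament proteins nebulin and leiomodin, and loss of either causes nemaline myopathy in people, while Klhl31 is needed for ordered sarcomeres in mice. Zebrafish carry paralogous pairs of several of these genes, written with the endings a and b, and the deposited table uses zebrafish-style names.

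The genes described are smyd1a, smyd1b, unc45b, hsp90aa1.1, klhl31, klhl40a, klhl40b, klhl41a and klhl41b, chosen by symbol alone, ignoring case. Of these 9 symbols 8 were found, on 30 of the 71447 assembled transcripts. The symbol hsp90aa1.1 was not matched and has no value here. Its paralog hsp90aa1.2 is described among the partner genes. The symbols were carried by 10 transcripts for smyd1a, 5 for klhl41a, 4 for klhl40a, 3 each for klhl31 and klhl41b, 2 each for smyd1b and klhl40b, and 1 for unc45b.

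The libraries came from young wild-type pacu, the South American fish Piaractus mesopotamicus, weighing 12 to 20 g. All were held at 28 °C with 12 h of light and 12 h of dark and ate commercial food to satiation. The 3 cultured libraries hold primary cells isolated from fast-twitch epaxial muscle, with 12 animals behind each isolation, and kept in complete growth medium, which was DMEM plus 10% serum and 1% antibiotics. The 3 tissue libraries hold the same muscle taken directly, from 6 animals in all, and the labels do not say whether animals were pooled. They also name no culture time or stage of differentiation, and the p-values describe the spread between these libraries, which may be partly technical.

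Values are normalised read counts, that is reads divided by 1 size factor per library. They were tested as cells minus tissue with limma on log2(value + 1), adjusted by the Benjamini-Hochberg method over all tested transcripts or names with a threshold of 0.05. Fold changes on this scale understate the change of low genes. Recovered reads, summed over transcripts that may share them, numbered 105795157 to 115224600 per cell library and 118183731 to 124752600 per tissue library. A read gave far fewer normalised counts in cells than in tissue. In cells 3 reads equal 1.17 to 1.32 normalised counts, and in tissue 3 reads equal 5.95 to 8.02. These floors cover counting error only. Because no transcript lengths were used, levels are compared between groups for the same gene and never between genes. Of the fibroblast markers, 11 were found and 9 of them were higher in every cell library than in any tissue library. Of 10 myogenic markers 3 were higher and 2 lower in every cell library, and the satellite cell factor pax7b had 925 to 1133 normalised counts in cells. Of 17 fast fibre markers 16 were lower in every cell library, their summed level being 637 to 6486 normalised counts in cells and 17307200 to 26624200 in tissue. In bulk RNA fewer fibres and less RNA per fibre cannot be told apart.

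All 30 member transcripts had lower levels in cultured cells than in tissue. With limma, all 30 passed the threshold in that direction, where 19.7% of all tested transcripts did. Each of the 30 also had every cell library below every tissue library, a separation found in 24.4% of tested transcripts. With the transcripts of each name summed, 8 of 8 genes passed in that direction, where 21.3% of all names did. Of the 8 sums 7 changed by -4 or less on the log2 scale, as did 7.16% of all names, and 2, smyd1a and klhl41b, by -10 or less, as did 1.13%. To be tested, a transcript had to reach 10 in 3 or more of the libraries, and 5 smyd1a transcripts under 10 in every cell library passed it through tissue alone, so these had to differ. In 13 of the 30 transcripts every cell library reached 10.

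**Figure D1:**
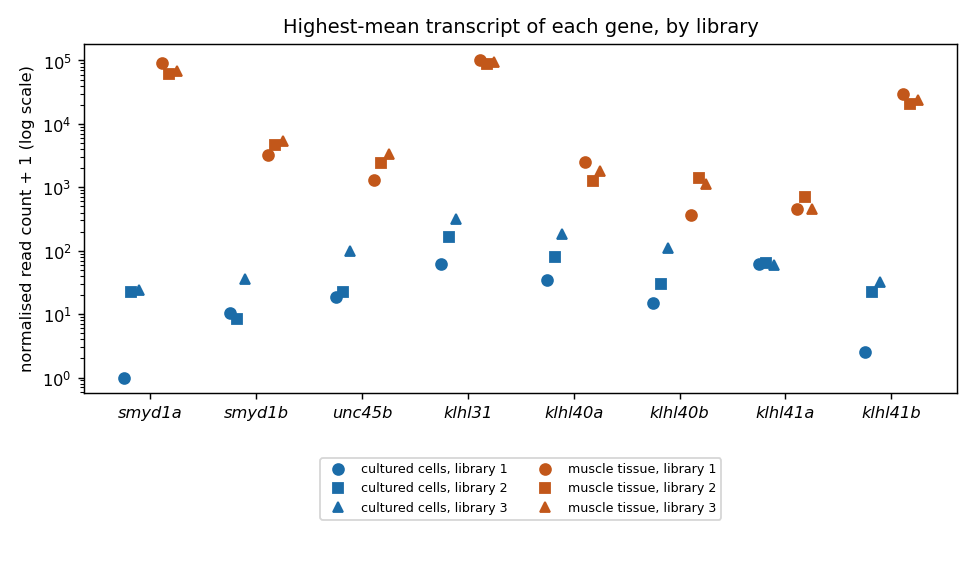
Normalised read count plus 1, on a log axis, of the highest-mean transcript of each gene in each library, with cultured cells in blue and muscle tissue in orange. For every gene the 3 cell libraries lie below the 3 tissue libraries, and the smyd1a point of cell library 1 is at a count of 0.

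Of the methyltransferase genes, smyd1a was at 0 in cell library 1. In cell libraries 2 and 3 it was far below tissue, though above the floor of 3 reads, which covers counting error only. The highest smyd1a transcript had 0, 21.5 and 23.1 normalised counts in cell libraries 1, 2 and 3, which are 0, 49 and 53 reads, and 91534, 60338 and 67458 in tissue libraries 1, 2 and 3. The lowest tissue library thus stood far above the highest cell library. Cells averaged 14.9 ± 12.9 and tissue 73110.0 ± 16348 (SD, n = 3 each), a log2 change of -13.11 (SE 1.17, limma adjusted p = 0.000154). Cell library 1 had no read on any of the 10 smyd1a transcripts, each of which allows up to 1.17 normalised counts there. The log2 changes of the 10 ran from -13.11 to -10.56, and their sum averaged 77.7 ± 68.6 in cells and 373165 ± 80343 in tissue. The highest transcript changed by -11.59 without cell library 1, by -13.84 without cell library 2 and by -13.89 without cell library 3.

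The paralog smyd1b, required for thick filament assembly in zebrafish muscle, kept a measurable level in every cell library. Its highest transcript had 9.39, 7.46 and 34.4 normalised counts in cell libraries 1, 2 and 3 and 3263, 4644 and 5464 in tissue libraries 1, 2 and 3. Cell library 3 was the highest of the cells and tissue library 1 the lowest of the tissue. Cells averaged 17.1 ± 15.0 and tissue 4457 ± 1112 (SD, n = 3 each), a log2 change of -8.22 (SE 0.55, limma adjusted p = 5.91e-05), or -8.86 without cell library 3. Its 2 transcripts took 49.7% to 50.3% of the sum each in every library, so a sum may count the same reads more than once.

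The myosin chaperone gene unc45b was lower in culture as well. Its single transcript had 17.6, 21.1 and 97.2 normalised counts in cell libraries 1, 2 and 3 and 1281, 2452 and 3362 in tissue libraries 1, 2 and 3. Cell library 3 again stood above the other cell libraries, and tissue library 1 below the other tissue libraries. Cells averaged 45.3 ± 45.0 and tissue 2365 ± 1043 (SD, n = 3 each), a log2 change of -6.00 (SE 0.68, limma adjusted p = 0.000409), or -6.76 without cell library 3. The reads behind the cell values, 45, 48 and 223, lay well above the floor of 3.

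Among the Kelch genes, klhl31 had the smallest relative spread in tissue. Its highest transcript had 61.4, 161 and 313 normalised counts in cell libraries 1, 2 and 3 and 102269, 88415 and 95705 in tissue libraries 1, 2 and 3. The tissue values varied by a coefficient of variation of 7.26% and the cell values by 71.0%. The means were 178 ± 127 for cells and 95463 ± 6930 for tissue (SD, n = 3 each). The log2 change was -9.34 (SE 0.53, limma adjusted p = 3.29e-05), or -8.72 without cell library 1. Its 3 transcripts moved alike, with changes between -9.34 and -9.31. Each took 32.7% to 34.45% of the sum in every library, so they may hold the same reads.

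The nebulin-protecting Kelch gene klhl40a had 33.6, 79.4 and 184 normalised counts on its highest transcript in cell libraries 1, 2 and 3 and 2512, 1242 and 1822 in tissue libraries 1, 2 and 3. Cell library 3 was the highest of the cells, yet far below the lowest tissue library. Cells averaged 99.1 ± 77.3 and tissue 1859 ± 636 (SD, n = 3 each). The change was -4.48 on the log2 scale (SE 0.60, limma adjusted p = 0.000884), or -3.87 without cell library 1 and -5.08 without cell library 3. Its 4 transcripts changed by -4.85 to -4.20, and their sum in cells was 5.43% of that in tissue.

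The paralog klhl40b had 14.1, 28.5 and 108 normalised counts on its highest transcript in cell libraries 1, 2 and 3 and 366, 1418 and 1146 in tissue libraries 1, 2 and 3. Tissue library 1, the highest for klhl40a, was thus the lowest for klhl40b. Cells averaged 50.1 ± 50.4 and tissue 977 ± 546 (SD, n = 3 each), with the lowest tissue library above the highest cell library. The change was -4.53 (SE 0.82, limma adjusted p = 0.00366), or -3.89 without cell library 1 and -5.32 without cell library 3, and -5.13 without tissue library 1. Its other transcript, in a separate assembled gene of the same cluster, changed by -4.60 and carried 45.8% to 51.1% of the summed level in the 6 libraries, so it may hold the same reads.

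The Klhl41 pair, which stabilises nebulin, differed between its members. The highest klhl41b transcript had 1.56, 21.5 and 31.4 normalised counts in cell libraries 1, 2 and 3, which are 4, 49 and 72 reads, and 29590, 20523 and 23503 in tissue libraries 1, 2 and 3. Cell library 1 lay far below the other cell libraries, as it did for smyd1a. Cells averaged 18.1 ± 15.2 and tissue 24539 ± 4622 (SD, n = 3 each). The change was -10.94 (SE 0.89, limma adjusted p = 0.000113), or -9.81 without cell library 1 and -11.64 without cell library 3. The 3 klhl41b transcripts changed by -11.48 to -10.87.

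The highest klhl41a transcript had 59.8, 62.3 and 59.3 normalised counts in cell libraries 1, 2 and 3 and 457, 698 and 448 in tissue libraries 1, 2 and 3. For this transcript the cell libraries were nearly level, with a coefficient of variation of 2.69%. The highest transcripts of the other 7 genes ranged from 71.0% to 101%. Cells averaged 60.5 ± 1.63 and tissue 534 ± 142 (SD, n = 3 each). The change was -3.09 (SE 0.28, limma adjusted p = 0.000164). This transcript belongs to an assembled gene that also carries the name fastkd1, a gene of mitochondrial RNA, on 5 transcripts. The 4 tested fastkd1 transcripts did not pass the test, with changes from -0.31 to 1.49, and how reads were divided between the names was not tested. Over the 3 klhl41a transcripts of the assembled gene with no other name, the summed change was -4.10 (limma adjusted p = 0.00033), against -3.51 over the 2 transcripts beside fastkd1. The 5 transcripts changed by -4.53 to -3.06, and their sum had a coefficient of variation of 14.6% over the cell libraries.

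**Figure D2:**
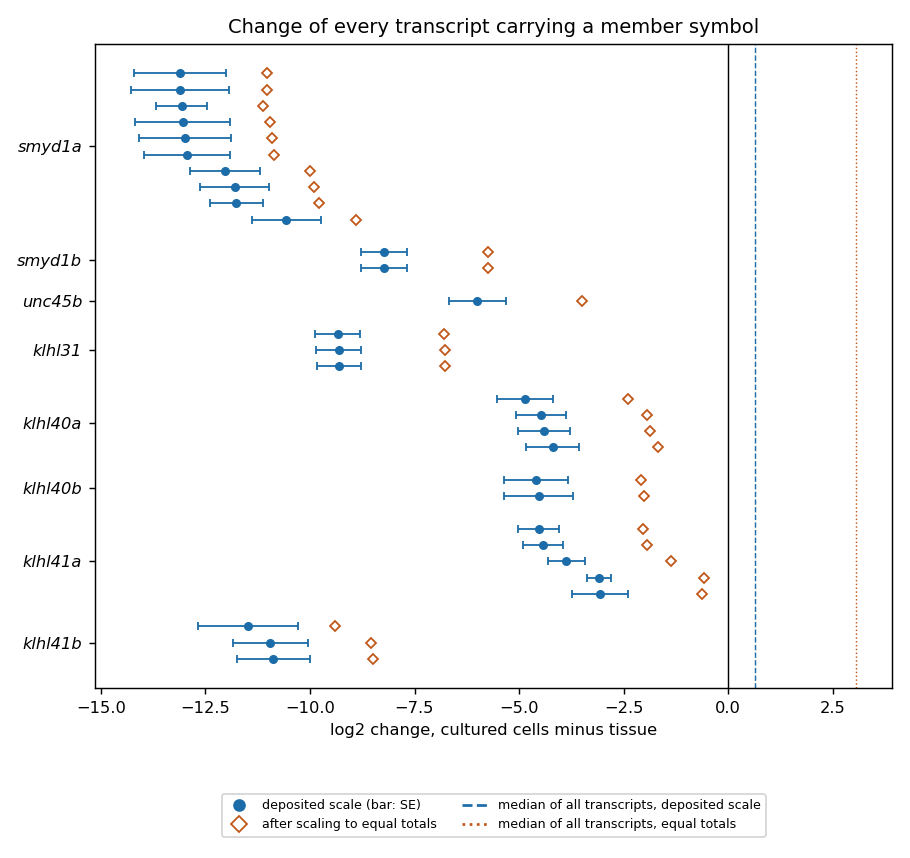
Log2 change, cultured cells minus tissue, of each of the 30 transcripts carrying a member symbol, with SE bars on the deposited scale and open diamonds after scaling to equal totals. The smyd1a and klhl41b transcripts lie between -13.11 and -10.56 on the deposited scale and the klhl40a, klhl40b and klhl41a transcripts between -4.85 and -3.06.

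The scale of comparison bears on the smaller changes. Tissue libraries held far more normalised signal than cell libraries, so scaling all libraries to equal totals moved the median log2 change of all summed names from 0.61 to 3.11. On that scale 27 of the 30 member transcripts still passed as lower in cells, where 7.93% of all tested transcripts did, and 7 of 8 summed genes, where 7.38% of names did. The 3 transcripts that did not pass were the highest klhl40b transcript (log2 change -2.03, limma adjusted p = 0.0595) and 2 of klhl41a, the highest (log2 change -0.57, limma adjusted p = 0.141) and another (log2 change -0.62, limma adjusted p = 0.371). The summed klhl40b did not pass either (log2 change -2.07, limma adjusted p = 0.0555). The changes of smyd1a, smyd1b, unc45b, klhl31 and klhl41b were then -11.03, -5.75, -3.49, -6.81 and -8.55 for the highest transcripts.

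What remained in culture differed from library to library. Summed over all 30 transcripts, the members took 0.00107%, 0.00222% and 0.0047% of the signal in cell libraries 1, 2 and 3 and 0.275%, 0.263% and 0.292% in tissue libraries 1, 2 and 3. Cell library 3 had the highest value of the cell libraries in 25 of the 30 transcripts, and cell library 1 the lowest or equal lowest in 24. The shares over all transcripts were not counted, and transcripts of 1 gene may share reads. By summed transcripts smyd1b and klhl41a did not rise from cell library 1 to 2 to 3, as cell library 2 was lowest for both. Rising in that order was found in 14 of 17 fast fibre markers, 7 of 10 myogenic markers and 4 of 9 slow fibre markers. The same order held for 3 of 4 smooth muscle markers with a tissue mean of 10 or more, 6 of 11 fibroblast markers and the 1 cardiac marker. It held for no endothelial, red blood cell, leukocyte or nerve and glia marker. The order was thus not particular to muscle fibre and myogenic markers, and its share over all names was not counted. In cell libraries 1, 2 and 3, myog of differentiating myoblasts stood at 44.2, 133 and 326 normalised counts. The determination factor myod1 stood at 39.9, 86.9 and 238, and desmin desma at 177, 544 and 1529. As shares of the tissue mean these were 9.54%, 28.8% and 70.45% for myog, 3.35%, 7.3% and 20% for myod1 and 0.392%, 1.2% and 3.39% for desma. The share of myf5 was 81.4%, 77.5% and 201%. Above the tissue mean in every cell library were mymk (222%, 427% and 1240%), cdh15 (284%, 268% and 1086%), met (260%, 354.5% and 472%) and pax7b (219%, 249% and 268%). Below it were pax3a in every cell library and pax7a in cell libraries 1 and 2. The fast fibre markers summed to 637, 4717 and 6486 in these libraries. The part of these differences between cultures in the member values was not tested.

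As a share of the tissue mean, the summed members covered a wide range. The marker shares set beside them rest on the highest-mean transcript of each gene, not on a sum. In cell libraries 1, 2 and 3 smyd1a stood at 0%, 0.0276% and 0.0348% of its tissue mean, and klhl41b at 0.00441%, 0.0823% and 0.13%. The median of the 17 fast fibre markers in these libraries was 0.00125%, 0.0214% and 0.0301%, with the middle of the markers, from the lower to the upper quartile, at 0.0173% to 0.0229% in library 2 and 0.0173% to 0.0428% in library 3. The smyd1a share lay between the quartiles in library 3 and above the upper quartile in library 2. Red blood cell markers had medians of 0%, 0.0137% and 0.318% in cell libraries 1, 2 and 3. Among them hbaa2 stood at 0%, 0.0137% and 0.0136%. Whether shares this low hold reads carried over from tissue libraries was not tested.

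The other members kept larger shares. In cell libraries 1, 2 and 3 klhl31 stood at 0.0659%, 0.169% and 0.333% of its tissue mean, smyd1b at 0.211%, 0.168% and 0.773%, and unc45b at 0.744%, 0.891% and 4.11%. The shares were 1.84%, 4.33% and 10.1% for klhl40a, 1.49%, 2.87% and 10.5% for klhl40b, and 7.04%, 5.89% and 7.91% for klhl41a. Each of these 6 genes, and klhl41b as well, was above the upper quartile of the fast fibre markers in every cell library. In cell library 1 that quartile was 0.00385%, and the klhl41b share, 0.00441%, rested on 4 reads on its highest transcript. The quartiles of the 9 slow fibre markers were 0% to 0.134%, 0.0711% to 0.503% and 0.045% to 0.984% in cell libraries 1, 2 and 3. Between these lay klhl31 and klhl41b in every cell library and smyd1b in cell libraries 2 and 3. Above them in every cell library lay unc45b, klhl40a, klhl40b and klhl41a. Markers of other cell types were retained to different degrees. Smooth muscle markers did not move together, as of 5 found 3 were higher and 2 lower in every cell library. Their sum follows the most abundant of them and does not describe the set. It was 49412 to 78996 normalised counts in cells and 1412260 to 1851310 in tissue. Among the higher was tagln, at 2076% to 3695% of its tissue mean, while acta2 stood at 1.56% to 2.19% and myh11a at 1.75% to 13.4%. Endothelial markers summed to 1924 to 2174 in cells and 2560 to 3682 in tissue. Of the 8 found, 5 were lower and 0 higher in every cell library, with flt1 at 0 in all cell libraries. As shares of the tissue mean, pecam1 and tie1 stood at 0% to 2.18% and 0% to 2.22% and kdr at 7.1% to 14.9%. Higher shares were kept by cdh5, at 85.9% to 157%, and kdrl, at 74.7% to 134%. Red blood cell markers summed to 18.9 to 136 normalised counts in cells and 4826 to 26456 in tissue. Leukocyte markers summed to 15.7 to 28.5 normalised counts in cells and 6367 to 8798 in tissue, and lcp1 was at 0 in all cell libraries. Nerve and glia markers summed to 14.8 to 20.3 in cells and 2258 to 3079 in tissue, with mbpa and plp1b at 0 in all cell libraries and mbpb at 7.77% to 12.1% of its tissue mean. The part of these cell types in the member values was not tested.

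**Figure D3:**
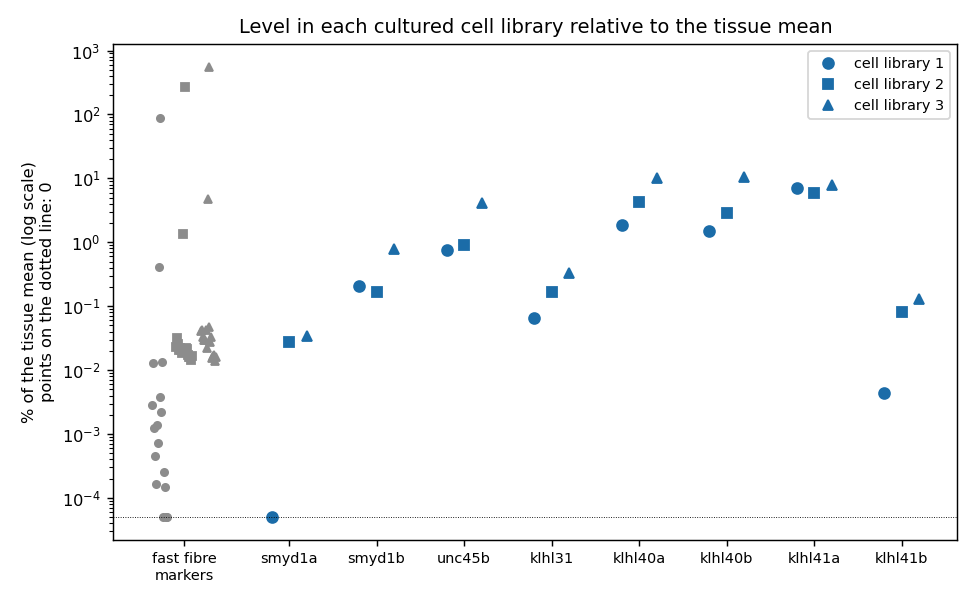
Level in each cultured cell library as a percentage of the tissue mean, on a log axis. Members are summed over their transcripts, and the 17 fast fibre markers, in grey, are shown by their highest-mean transcript. The smyd1a points of libraries 2 and 3, at 0.0276% and 0.0348%, sit close to the band of the fibre markers, while klhl40a, klhl40b and klhl41a lie between 1.49% and 10.5%.

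Tissue libraries also differed from each other. Tissue library 1 was the highest of the tissue libraries in 20 of the 30 transcripts and the lowest in 8, but transcripts of 1 gene may share reads. By summed transcripts it was the highest for smyd1a, klhl31, klhl40a and klhl41b and the lowest for smyd1b, unc45b, klhl40b and klhl41a. The share over all transcripts was not counted. These ranks depend on scale, because the total normalised signal was 316135000 in tissue library 1 against 247390000 and 248165000 in tissue libraries 2 and 3. As a share of that signal the members were highest in tissue library 3, at 0.292%, against 0.275% in tissue library 1. In tissue library 1 the 9 slow fibre markers summed to 29973 normalised counts, against 112510.0 and 69316 in tissue libraries 2 and 3. The 5 red blood cell markers summed to 4826 in tissue library 1, against 26456 and 19519. The fast fibre markers were highest in tissue library 1, at 26624200. The part of these differences in the member values was not tested.

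The scaling cancels in ratios within a library, and 6 were compared between the groups with an exact two-sided permutation test. With 3 libraries against 3 the smallest p it can give is 0.1, and with 2 against 3, where smyd1a was at 0, it is 0.2, so none could reach 0.05. The log2 ratio of summed klhl41a to klhl41b was 5.50, 1.02 and 0.78 in cell libraries 1, 2 and 3 and -5.86, -4.44 and -5.24 in tissue libraries 1, 2 and 3. The groups did not overlap, and the ratio was higher in cells by 7.61 (exact permutation p = 0.1, adjusted over the 6 ratios 0.2), or by 6.08 without cell library 1, 8.32 without cell library 2 and 8.43 without cell library 3. The sign of a single ratio depends on transcript lengths and is not interpreted. Any pair of genes with clearly unlike changes may separate the groups in this way, also smyd1a and smyd1b. The share of such separations over other pairs was not counted.

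The log2 ratio of smyd1a to smyd1b was 2.79 and 0.92 in cell libraries 2 and 3 and 6.14, 5.05 and 5.003 in the tissue libraries, a difference of -3.55 (exact permutation p = 0.2, adjusted 0.3) with no overlap. It was -4.48 without cell library 2 and -2.61 without cell library 3, each of which leaves a single cell library. The ratio of klhl40a to klhl40b was 1.60 ± 0.32 over the cell libraries and 1.45 ± 1.503 over the tissue libraries (SD, n = 3 each). Its difference of 0.15 was within the spread of the tissue libraries (exact permutation p = 0.9, adjusted 0.9). Tissue library 1 held the highest tissue ratio, 3.10, and tissue library 2 the lowest, 0.17. Both smyd1 genes stand in 1 assembly cluster, as do klhl41a and klhl41b, while klhl40a and klhl40b stand in separate ones. How reads were divided within a cluster was not tested.

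Relative to their client, myosin, unc45b and smyd1b were higher in every cell library than in any tissue library. Muscle myosin heavy chains, 14 genes summed, had 79.4, 1082 and 2136 normalised counts in cell libraries 1, 2 and 3. In tissue libraries 1, 2 and 3 they had 4129880, 4283610 and 3768690. In cell libraries 1, 2 and 3 this sum was thus 0.00195%, 0.0267% and 0.0526% of its tissue mean. Of all summed names 1.13% changed by -10 or less on the log2 scale. Any gene that fell less than the myosin sum gives a higher ratio in cells, so a higher ratio is not particular to unc45b and smyd1b. The log2 ratio of unc45b to this sum was -2.17, -5.68 and -4.46 in cell libraries 1, 2 and 3 and -11.65, -10.77 and -10.13 in the tissue libraries. The difference between the means was 6.75 (exact permutation p = 0.1, adjusted 0.2), or 5.78 without cell library 1 and 7.54 without cell library 2. For smyd1b the ratio was -4.41 ± 2.10 over the cell libraries and -8.86 ± 0.43 over the tissue libraries (SD, n = 3 each), a difference of 4.46 without overlap (exact permutation p = 0.1, adjusted 0.2), or 3.29 without cell library 1 and 5.34 without cell library 2. For smyd1a it was -3.39 and -4.04 in cell libraries 2 and 3 and -3.16, -3.80 and -3.43 in the tissue libraries, which overlapped (difference -0.25, exact permutation p = 0.6, adjusted 0.72). Myosin heavy chains resemble each other closely, so their reads may be split between copies or counted repeatedly, also in the sum.

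**Figure D4:**
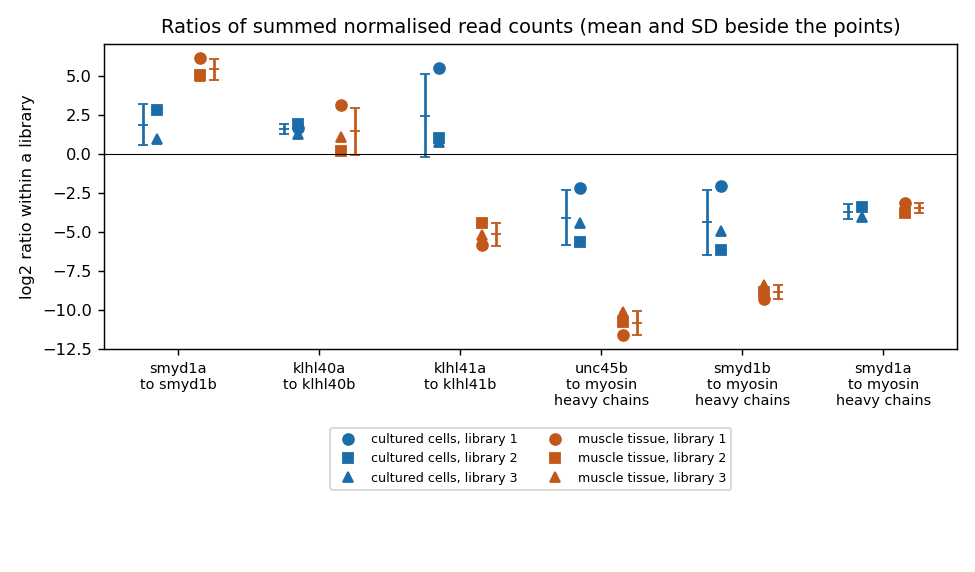
Log2 ratio of summed normalised read counts within each library, with the group mean and SD beside the points. The klhl41a to klhl41b ratio is higher in each of the 3 cell libraries than in any of the 3 tissue libraries, and the ratios of unc45b and smyd1b to the myosin heavy chains are higher in cells, while that of smyd1a to the myosin heavy chains overlaps.

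The names with profiles most like each member, by the root mean square distance between centred log2 profiles over the 6 libraries, were contractile or fibre genes for several of them. For smyd1a they were the skeletal actins acta1 and acta1b, at distances of 0.13 and 0.13, and the Z-disc gene myoz1a at 0.17. For klhl41b they were gls2a at 0.23, the myosin-binding protein gene mybphb at 0.29 and the Z-disc gene ldb3b at 0.39. For smyd1b the named ones were the calcium channel subunit cacnb1 at 0.28, after 2 transcripts with an identifier only, and for klhl31 the triad gene jph2 at 0.27 and zgc:91999 at 0.30, after 1 transcript with an identifier only. For unc45b they were corin at 0.28, pla1a at 0.31 and stac3, a coupling gene of the triad, at 0.35. For klhl40a they were the synapse kinase musk at 0.27, acbd7 at 0.32 and the splicing factor rbm20 at 0.33, and for klhl40b the calsequestrin casq2 at 0.40, cavin1a at 0.42 and si:ch211-119c20.2 at 0.45. The highest klhl41a transcript was most like emc3 at 0.13 and akt1s1 at 0.14, followed by a transcript with an identifier only. With 6 libraries in 2 groups the group difference sets most of each profile.

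Genes that work with the members were taken from lists, 9 in number, with 1 transcript per name, the highest. Over all names tested this way 21.7% were lower and 30.5% higher in cells, with a median log2 change of 0.59. After scaling to equal totals the median was 3.06. A gene under 10 in every cell library entered through tissue alone and had to differ, so the number of such genes is given beside each count.

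Among the client myosins, of 13 tested muscle myosin heavy chains 12 fell and 1 did not pass (10 fell and none rose under equal totals). Of these 12, 4 were under 10 in every cell library. The median was -7.73, or -7.66 with myh7, at 0 in all cell libraries, set at its bound of 3 reads per library. With a tissue library left out and the filter reapplied, 9 were tested and 7 to 8 fell, with medians of -6.62 to -5.33. The fast chain myhz1.1 changed by -14.13 (limma adjusted p = 0.000292) and myh6 by -13.92, or by -12.19 and -12.07 without cell library 1, -14.97 and -14.76 without cell library 2, and -15.22 and -14.94 without cell library 3. Of 5 nonmuscle and smooth muscle chains 2 rose, 2 fell and 1 did not pass (3 rose and 1 fell under equal totals), and 1 of the falls, myh14, was under 10 in every cell library. The median was 1.54. Without tissue library 1 it was -0.17 over the same transcripts, and 1.25 over the 4 tested with the filter reapplied. The nonmuscle chains myh9b and myh10, which drive cell contraction and division, rose by 4.19 and 2.84 (limma adjusted p = 6.62e-05 and 7.09e-05), and myh14 changed by -4.62, or -5.31 without cell library 1 and -4.01 without tissue library 2.

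The general paralog of the myosin chaperone, unc45a, had 324, 470 and 499 normalised counts in cell libraries 1, 2 and 3 and 0, 23.8 and 109 in tissue libraries 1, 2 and 3. Every cell library was above every tissue library, the reverse of unc45b. The gene was chosen for mention after its values were seen. It rose by 4.92 (limma adjusted p = 0.0382), but the call ended without any 1 of the cell libraries or tissue library 2, and the change was 3.02 without tissue library 1 and 6.41 without tissue library 3.

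In the Hsp90 list of paralogs and co-chaperones, 10 of 26 fell, 8 rose and 8 did not pass, with a median of 0.08 (2 fell and 21 rose under equal totals). Without any 1 of the cell libraries 4 rose. Without tissue library 1 the median was -0.18 over the same transcripts and -0.08 with the filter reapplied. The falls include chordc1a, which was under 10 in every cell library. The general cytosolic form hsp90ab1 had 11404 ± 875 normalised counts in culture against 900.3 ± 141 in muscle (SD, n = 3 each). It rose by 3.67 (limma adjusted p = 1.88e-05), and the endoplasmic reticulum form hsp90b1 by 3.51. Over summed transcripts hsp90ab1 and hsp90b1 rose by 2.61 and 3.11. The co-chaperones fkbp5 and chordc1a changed by -6.79 and -5.64, and chordc1a by -5.02 without tissue library 2 and -6.52 without tissue library 3. The highest transcript of hsp90aa1.2, also chosen after its values were seen, had 116, 232 and 302 normalised counts in cell libraries 1, 2 and 3 and 1412, 3850.2 and 5051 in tissue libraries 1, 2 and 3. It changed by -3.90 (limma adjusted p = 0.00107), and its 13 transcripts summed by -1.78, while under equal totals the highest transcript did not pass at -1.37.

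Among Hsp70, Hsp40 and exchange factors 8 of 38 fell, 6 rose and 24 did not pass, with a median of 0.24 (2 fell and 34 rose under equal totals). The abundant constitutive form hspa8 rose by 1.31 (limma adjusted p = 0.00494), while bag6 and the co-chaperone dnajb2 changed by -5.86 and -3.93. Over summed transcripts hspa8, bag6 and dnajb2 changed by 1.26, -3.40 and -3.40. Of the small heat shock proteins, BAG3 partners and heat shock factors 11 of 18 fell and 1 rose, with a median of -3.46 (9 fell and 8 rose under equal totals). Of the 11, 5 were under 10 in every cell library. With a tissue library left out and the filter reapplied, 13 were tested and 6 to 7 fell, with medians of -1.35 to -0.72. In that list the Z-disc gene synpo2la changed by -7.22, synpo2b by -11.82 and hspb9 by -10.92, all past the test. Leaving out 1 library, synpo2b changed by -11.04 without cell library 1 and -12.77 without cell library 3, and hspb9 by -10.09 without cell library 1.

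Of the other SMYD genes and the nascent-chain complex 4 of 8 fell and none rose, with a median of -0.9997 (1 fell and 4 rose under equal totals). The complex subunit naca, whose muscle form binds Smyd1 in mice, had 35.6, 71.5 and 146 normalised counts in cell libraries 1, 2 and 3 and 14688, 12382 and 11168 in tissue libraries 1, 2 and 3, a change of -7.44 (limma adjusted p = 4.73e-05). Its partner btf3 changed by -2.46, and by 0.08 without passing under equal totals.

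Most other Kelch and BTB genes and the cullin 3 ligase they serve did not pass the test. Of 42 tested, 5 fell, 7 rose and 30 did not pass, with a median of 0.33 (3 fell and 36 rose under equal totals). Without cell libraries 1, 2 and 3 in turn, over the same transcripts, 2, 3 and 3 rose and 5, 3 and 4 fell. Those that fell furthest were kbtbd12, at 0, 0 and 2.61 normalised counts in cell libraries 1, 2 and 3 and 2239, 1555 and 1554 in tissue libraries 1, 2 and 3, and klhl30. Both were under 10 in every cell library. Their changes were -10.16 and -7.68 (limma adjusted p = 5.51e-05 and 0.000455). Without cell library 3 these changes were -10.78 and -8.53, and klhl30 changed by -6.89 without cell library 1. The more abundant klhl21 fell by 3.42.

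Of the thin filament partners of the Kelch proteins 9 of 17 fell and 5 rose, with a median of -2.69 (7 fell and 6 rose under equal totals). Without cell library 2, over the same transcripts, 3 rose, and lmod2b, one of the falls, was at 0 in every cell library. Nebulin neb, the ruler protein guarded by Klhl40 and Klhl41, changed by -11.98 (limma adjusted p = 7.6e-05), or -10.94 without cell library 1 and -12.87 without cell library 3. The pointed-end cap tmod4 changed by -12.06 and pdlim7 by -8.83. Over summed transcripts neb, tmod4 and pdlim7 changed by -11.15, -12.20 and -6.99. Of the thick filament and M-band assembly and ligase genes 16 of 18 fell and none rose, with a median of -9.16 (16 fell and 1 rose under equal totals). Of the 16, 4 were under 10 in every cell library. With a tissue library left out and the filter reapplied, 13 were tested and 12 fell. There mybpc2b changed by -14.49, the M-band protein gene myom1b by -12.26 and titin ttn.1 by -9.73. Without cell library 1 mybpc2b and ttn.1 changed by -12.73 and -8.99, without cell library 2 mybpc2b by -15.48, and without cell library 3 they changed by -15.27 and -10.56.

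**Figure D5:**
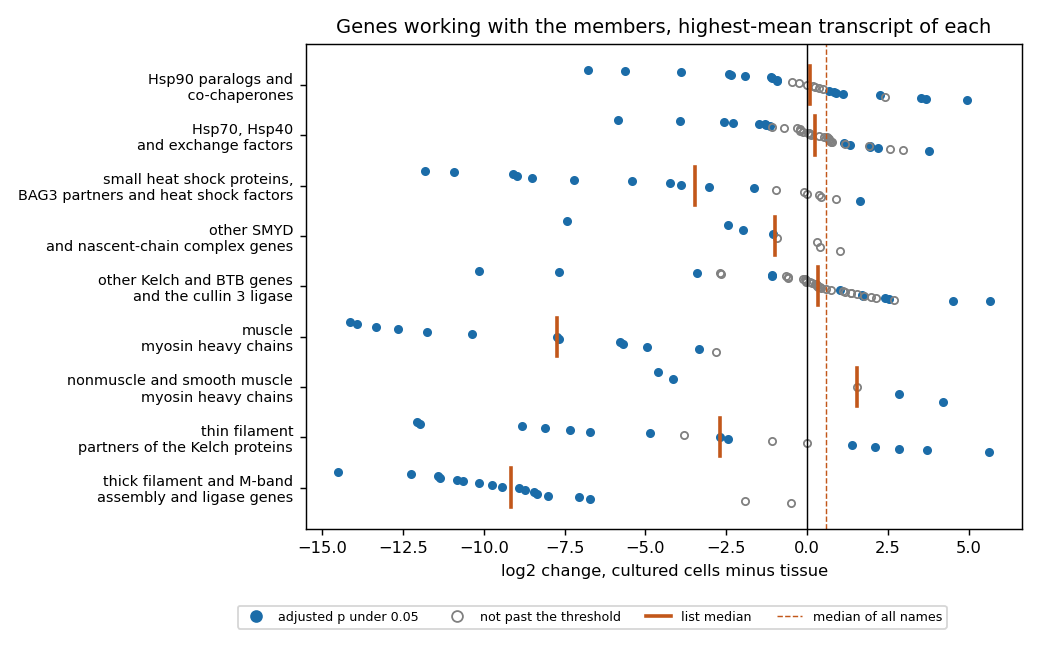
Log2 change, cultured cells minus tissue, of each tested gene in the 9 lists, filled where the limma adjusted p is under 0.05, with the list median as an orange bar and the median of all names, 0.59, as a dashed line. The list medians run from -9.16 for thick filament genes to 1.54 for nonmuscle and smooth muscle myosins. Without tissue library 1 the latter was -0.17 over the same transcripts and 1.25 with the filter reapplied.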

How the data were processed

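Per the submitters' processing notes, the tools were Bowtie2, Trimmomatic, FastQC 0.11.8 and DESeq2, and the build named is GRCz11, without roles. The RNA came from TRIzol extraction and stranded poly(A) libraries, per the labels' protocols. How reads were counted, or shared between transcripts, is not given in these sources. The deposited table holds the authors' normalised read counts for 71447 Trinity transcripts in 6 libraries. Dividing by the value of 1 read in each library gave whole numbers, within 0.01, for 100% of values, so reads could be recovered.

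The 65662 transcripts reaching 10 in 3 or more libraries were fitted as log2(value + 1) by limma 3.58.1 (R 4.3.3), whose prior variance followed the mean level. Sums per name gave 15714 tested names. Other steps used Python 3.11.15 with scipy 1.17.1, pandas 2.3.3, matplotlib 3.10.9 and numpy 2.4.6. The fit was tested on simulated data. No pair of replicates was a duplicate, with a chi-square of 58.1 to 219 for each degree of freedom. This check cannot show that the libraries come from independent animals or isolations. Each was counted as a replicate as labelled.

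All members were named. Of each list the 2 highest genes and the 2 with the largest change past the threshold were named, and for each member the 3 most alike names, where bare identifiers are counted but not printed. Other genes named were chosen after their values were seen. Members and lists were chosen with earlier results of these data known. The planned edgeR and DESeq2 alternatives were not run, and limma's voom on recovered reads replaced them. This, the fits leaving out a library over the same transcripts, the ratios of highest transcripts and the bound for genes at 0 were chosen after the data were seen. No genome or sequences were used here.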

Additional observations from a re-analysis of the deposited data

How the results depend on the processing

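All 30 member transcripts passed as lower in cells with pseudocounts of 0.5 and 5, no filter, a filter of 50, TMM factors, a median of ratios, a robust prior, voom on recovered reads, and each library left out over the same transcripts. Leaving out a tissue library with the filter reapplied left 25 transcripts, all passing. No member changed direction under any alternative run. Under equal totals 5208 transcripts were lower and 51022 higher, and of the list genes 51 were lower and 113 higher, against 77 and 29 on the deposited scale. With 1 library left out and the filter reapplied the higher transcripts numbered 9030 to 19838 and the higher list genes 19 to 31, and over the same transcripts 11964 to 20095 and 17 to 31, with the lowest of these without a cell library. Deviations of same-numbered libraries were hardly correlated (-0.0626, -0.0446 and -0.0173), which cannot show whether the numbers pair cells and tissue. The labels do not say. With the number as a block 11855 transcripts were lower and 17062 higher, with all 30 and all 8 members still called. The smyd1a to smyd1b difference was -5.94 and -5.04 with pseudocounts of 0.5 and 5, which bring in cell library 1, and -4.48 to -2.61 with 1 library left out. The smyd1a to myosin difference was -1.45 with a pseudocount of 0.5 and 0.30 over the highest transcripts. It ranged from -0.58 to 0.07 with 1 library left out. The klhl40a to klhl40b difference ranged from -0.49 to 0.97 with 1 library left out, with its sign turned without cell library 2, tissue library 2 or tissue library 3. The cause of these shifts was not tested. In cell library 1 the low depth of klhl41b, at 4 reads, limits its ratios.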
